A study of Mus musculus with 2 samples.

Results

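Pmvk, Ebp, Chd9 and Tbl1xr1 are 4 genes of cholesterol synthesis and its transcriptional control that stand beside TCF7 ChIP-seq peaks as the nearest gene. They were chosen by the deposited peaks themselves, as pathway genes whose identifier stands beside a peak, so that having a peak is the rule and not a finding. They hold 4 of 779 peaks and 4 of the 754 genes named in the nearest-gene table. The libraries were 1 TCF7 ChIP and 1 input DNA, both from DP352 cells, a T-ALL line from 1 lymphoma of a mouse with the genotype Lck-Akt2;Dlx5 transgenic. The Lck promoter drives Dlx5 and a myristoylated Akt2 in T cells, and both libraries share these transgenes. The antibody was the rabbit TCF1/TCF7 clone C63D9. Neither library has a replicate, and no wild-type or unrelated-antibody ChIP was analysed here, so that every value below describes the peaks of 1 line. Intervals are exact at the 95% level and cover counting error only. Of 12 T-cell marker genes, 3 (Cd8a, Tcf7 and Lef1) were nearest to a peak, as were 0 of 12 marker genes of B cells, myeloid cells and stromal or epithelial cells and 2.64% of all protein-coding genes. A peak does not measure expression.

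Cholesterol is built from acetyl-CoA in a chain of enzymes that first forms mevalonate, then isoprenoid diphosphates, and finally closes and trims the sterol rings. The transcription factors Srebf1 and Srebf2, held in the endoplasmic reticulum while sterol is plentiful, move to the nucleus when it is scarce and turn on the genes of these enzymes together with coactivators. Pmvk adds a phosphate to phosphomevalonate in the early part of the chain, and Ebp is the isomerase that moves a double bond in the sterol ring near its end. Chd9 is a chromodomain helicase that acts as a coactivator of nuclear receptors, and Tbl1xr1 belongs to the NCoR and SMRT corepressor complexes, where it helps to exchange corepressors for coactivators. TCF7 is an HMG-box factor that brings β-catenin to DNA in T cells.

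The sequences under the peaks are given first, 5′ to 3′ on the plus strand of mm10, since 3 of the 4 peaks lie at gene starts and the other on a repeat. The Pmvk peak spanned chr3:89459011-89459399, and its stretch before the nearest TSS, chr3:89459011-89459117, is shown because it holds the CRE site and the GGGCGG site upstream of that TSS. Capitals mark TGACGTCA, the site of CREB and ATF factors (CRE), and GGGCGG, the site of SP1 and KLF factors. A second stretch, chr3:89459135-89459164 in the UTR, holds 2 further GGGCGG sites.
Pmvk upstream: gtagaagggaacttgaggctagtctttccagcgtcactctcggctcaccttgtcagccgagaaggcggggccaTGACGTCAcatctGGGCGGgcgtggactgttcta
Pmvk UTR: ggggggaGGGCGGggggGGGCGGgaaaggt

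The Chd9 peak spanned chr8:90828478-90828797 and the Ebp peak chrX:8192880-8193250, and both fell wholly within annotated UTR. For Chd9, chr8:90828737-90828766 is shown with the minus-strand copy of GGGCGG in capitals, and for Ebp, chrX:8192943-8192972 with CCAAT, the site of NFY, a partner of Srebf2, in capitals.
Chd9 UTR: ccagctgcatttCCGCCCtgcactgcgctc
Ebp UTR: aggtggcttctgCCAATaggagtcctccga

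The peak assigned to Tbl1xr1, chr3:21670834-21671011, is shown whole, with its longest run of CTG units, which reads CAG on the minus strand, in capitals.
Tbl1xr1 peak: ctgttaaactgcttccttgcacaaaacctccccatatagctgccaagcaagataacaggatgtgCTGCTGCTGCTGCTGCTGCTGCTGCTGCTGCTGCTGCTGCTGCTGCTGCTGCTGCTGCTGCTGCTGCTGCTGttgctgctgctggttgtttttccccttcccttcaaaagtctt

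Pmvk had the strongest of the 4 peaks and Ebp the lowest enrichment. The Pmvk peak held 364 ChIP fragments at its summit (328 to 403) and had a fold enrichment of 25.4, rank 132 of 779. Chd9 followed with 174 fragments (149 to 202) and 13.0-fold, rank 265. The Tbl1xr1 peak held 49 fragments (36.3 to 64.8) at 8.49-fold, rank 406, and the Ebp peak 60 fragments (45.8 to 77.2) at 3.23-fold, rank 771. Fragment numbers of Pmvk and Chd9 stood apart from each other and from those of the other 2 genes, and the intervals of Ebp and Tbl1xr1 overlapped. The order by fragments and the order by fold thus differ for the lower pair. Over all peaks, the median was 113 fragments and 8.93-fold. The -log10 of the q-value was 196 for Pmvk, 67.0 for Chd9, 14.7 for Tbl1xr1 and 4.59 for Ebp, where the lowest in the list was 2.49. These measures come from the peak call by which the genes were chosen and are given as a description.

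**Figure D1:**
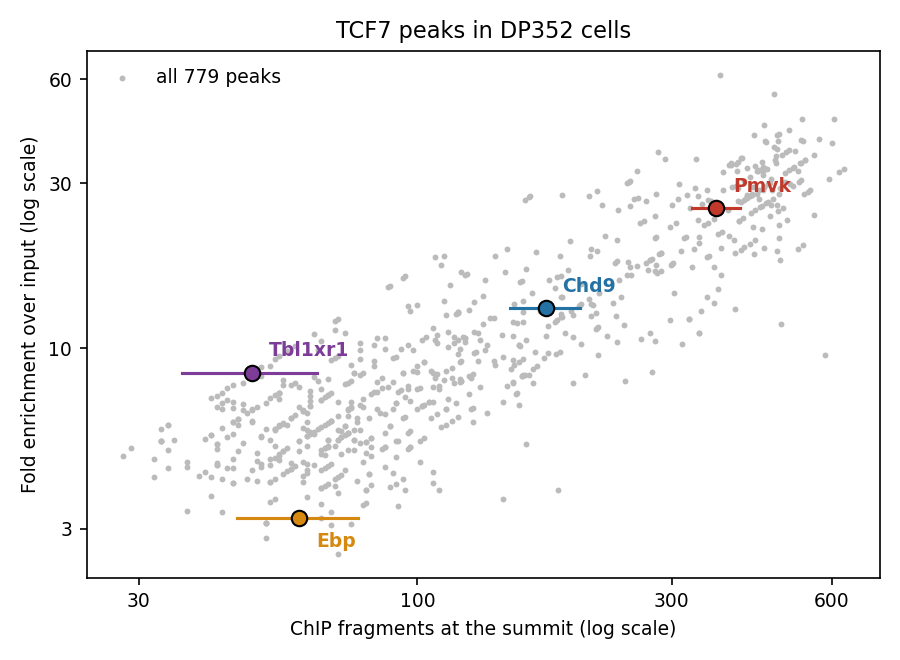
ChIP fragments at the summit (x axis, log scale) and fold enrichment over input (y axis, log scale) of 779 TCF7 peaks, 1 gray point per peak, with the 4 pathway genes in color and exact 95% Poisson intervals of their fragments as horizontal lines. Pmvk, at 364 fragments and 25.4-fold, lies toward the upper right, and Ebp, at 3.23-fold, near the lower edge.

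The 4 peaks also differed in the input DNA beneath them. The peak caller divides the ChIP pileup at the summit by the highest of several background estimates, taken from the input at the summit itself, from windows of 1000 and 10000 bp around it, or from the genome mean. The estimate behind each fold enrichment was recovered from the deposited pileup and fold. At Ebp it was the 9 input fragments at the summit. At Pmvk it was 6.52, which is 41 input fragments in 1000 bp scaled to a fragment length of 159 bp, and at Chd9 it was 6.04, which is 38 input fragments in 1000 bp. At Tbl1xr1 it was 2.13, the genome mean, so that the input held at most 13 fragments in the 1000 bp and at most 2 at the summit. The background of Ebp was higher than that of 85.0% of all peaks, and that of Tbl1xr1 was at the floor shared by 26 of 779 peaks (3.34%). Ebp and Tbl1xr1 thus had overlapping fragment numbers over different backgrounds.

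With the fragment numbers on both sides known, the enrichments have counting errors. As a ratio of ChIP pileup to background without the pseudocount of 1 that the peak caller adds, Pmvk stood at 29.1 (21.1 to 41.3), Chd9 at 15.0 (10.5 to 22.0), Tbl1xr1 at 12 (8.88 to 15.9) and Ebp at 3.48 (1.72 to 7.98). The interval of Tbl1xr1 holds the error of the ChIP count alone, since the genome mean was taken as exact. The interval of Ebp lay below those of the other 3 genes. Those of Pmvk and Chd9 overlapped by less than 1 unit of the ratio, and those of Chd9 and Tbl1xr1 overlapped from 10.5 to 15.9. An overlap of intervals is no test of a difference, and the differences between the ratios were not tested. The summit is the highest point of the ChIP and the background the highest of its windows, and the effect of these choices on the ratios was not tested.

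**Figure D2:**
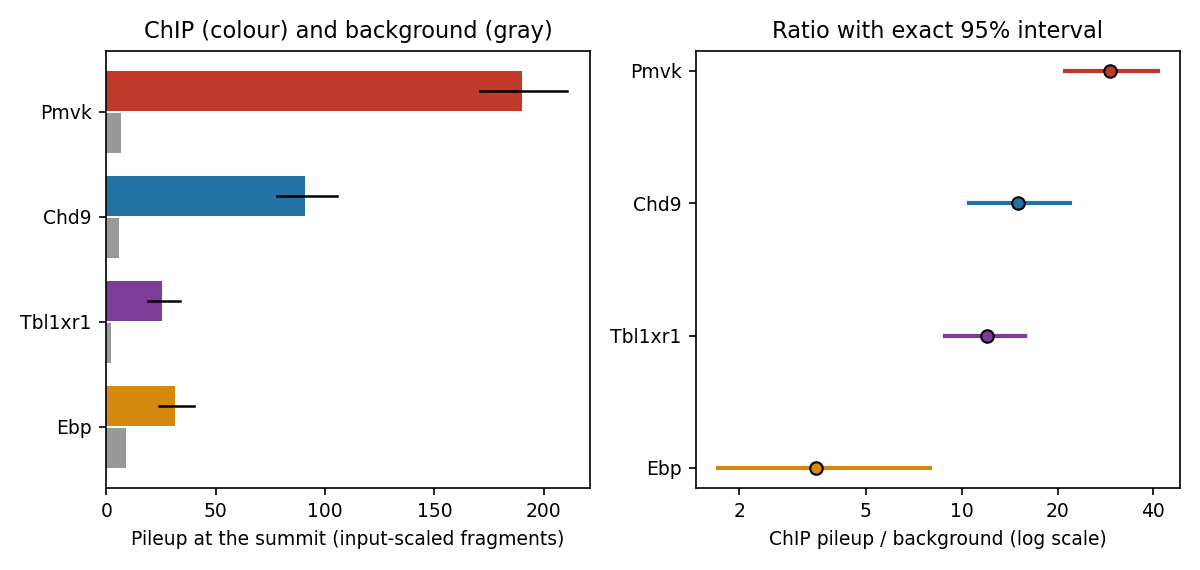
Left, ChIP pileup at the summit (colored bars, with exact 95% Poisson intervals) and local background (gray bars) of the 4 peaks, in fragments scaled to the input library; right, their ratio with its exact 95% interval on a log axis. The gray bar is longest for Ebp and shortest for Tbl1xr1, at 2.13, and the Ebp ratio of 3.48 stands apart on the left.

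Pmvk, Chd9 and Ebp had summits near a gene start, and Tbl1xr1 did not. Within 1000 bp of a TSS of a protein-coding gene lay 3 of the 4 summits, and 61.0% of all summits. In Pmvk, the summit was 74 bp downstream of the TSS at 89459118, inside the UTR of its first exon. Further starts, at 89459331 and 89459571, lay 139 and 379 bp downstream of the summit, and the outermost, at 89454541, was 4651 bp upstream. RefSeq gives the last of these and 89459571 as starts. The CRE site was centered 31 bp and the first GGGCGG site 19 bp upstream of the TSS at 89459118, and the other 2 GGGCGG sites 26 and 36 bp downstream. Pmvk ranked 124 among the 475 promoter peaks by fold enrichment. Its peak was 389 bp long.

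The Chd9 summit lay between alternative starts of the gene. It was 307 bp downstream of the outermost TSS, at 90828352, and 168 to 197 bp upstream of a group of 5 TSS, the first of them at 90828827. A protein-coding transcript starts at the outermost TSS and another at 90828835, which RefSeq gives as a start as well, 176 bp from the summit. The authors' table gives the peak as upstream of Chd9. Its peak was 320 bp long and ranked 230 of 475 promoter peaks, and the single GGGCGG site within 100 bp of the summit was centered 92 bp toward the gene.

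In Ebp, the summit lay inside the gene, and the distance to a start depended on the transcript. The nearest annotated TSS, at 8192898, was 140 bp away, but belongs to a transcript with a retained intron. The starts of protein-coding transcripts, at 8193400 and 8193512, lay 362 and 474 bp upstream of the summit, and RefSeq gives the latter alone. The peak of 371 bp was within the first exon of the longest transcript. Next upstream of Ebp, the end of Porcn, which encodes the acyltransferase of Wnt proteins, was 810 bp from the summit. Ebp ranked 474 of the 475 promoter peaks by fold enrichment.

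**Figure D3:**
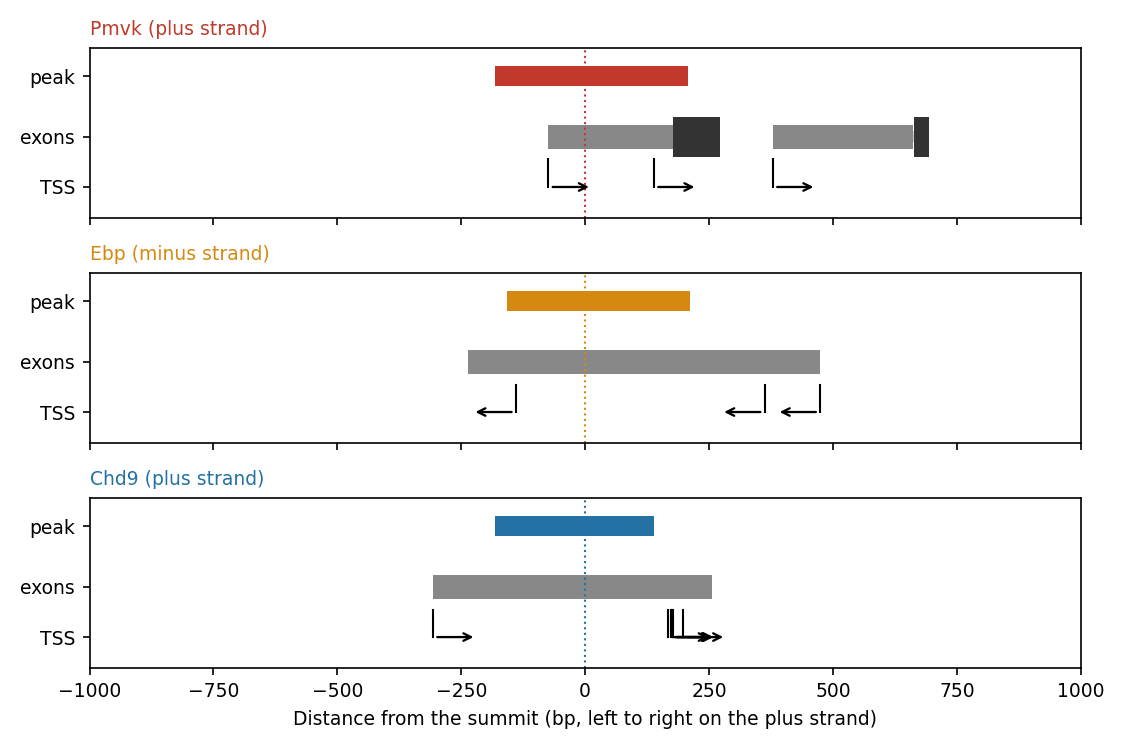
Peaks (colored bars), exons of Pmvk, Ebp and Chd9 (UTR in gray, coding sequence in black) and annotated TSS (arrows in the direction of transcription) by distance from the summit in bp. The Pmvk summit follows a TSS by 74 bp, the Chd9 summit lies between its starts, and the Ebp summit is 362 bp inside the nearest start of a protein-coding transcript.

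The peak assigned to Tbl1xr1 was intergenic, 406 kb upstream of the gene. The nearest gene of any type in GENCODE vM21 was the processed pseudogene Gm17935, 21.7 kb away, followed by the lincRNA Gm31693 at 31.9 kb, so the assignment rests on the annotation behind the authors' table. On the other side, the nearest protein-coding gene, Agtr1b, was 1304 kb away. The peak was 178 bp long, with 11.6% of peaks shorter, and its run of CAG units began 3 bp from the summit and ended 74 bp from it. The run of 24 units was the third longest among the 779 peaks. A run of 4 or more units stood within 100 bp of the summit in 8.73% of all peaks. In the reference, 65.2% of the bases within 100 bp of the summit were masked as repeats, more than at 95.4% of peaks, against 14.4% at Pmvk and 0% at Ebp and Chd9. How far reads from a repeat of this kind can be placed was not tested. By fold enrichment, the peak ranked 93 of the 304 peaks farther than 1000 bp from a TSS.

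No TCF motif was found in the 4 peaks. The letters searched were CTTTGAA or CTTTGAT or CTTTGTA or CTTTGTT on both strands, and 0 of the 4 windows of 100 bp on each side of the summit held one, as did 0 of the 4 whole peaks. Over all 779 peaks, 15.7% of such windows and 20.3% of whole peaks held one. The absence of these letters in a window says nothing of TCF7 itself. The sterol regulatory element of Srebf factors, searched as TCACNCCAC, was in 0 of the 4 peaks and in 0.770% of all windows. GGGCGG was within 100 bp of the Pmvk and Chd9 summits and in 24.1% of all windows, or 33.1% of those at promoters. The Ebp peak held it too, 128 bp from its summit, as did 36.6% of whole peaks and 53.1% of whole promoter peaks. CCAAT was within 100 bp of the Ebp summit and in 18.1% of all windows. TGACGTCA, in the Pmvk peak 105 bp from its summit, was in 2.18% of whole peaks. Neither CACGTG, the E-box, nor the motifs of ETS (CCGGAAG), RUNX (TGTGGT), NRF1 (GCATGCGC) and YY1 (AAGATGGCG) factors were in any of the 4 peaks. Within the Pmvk peak and within the Ebp peak, the sites of different motifs did not overlap in position.

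The base composition differed between the peaks. Within 100 bp of the summit, G and C made up 64.7% of the bases at Chd9, 59.2% at Pmvk, 54.2% at Tbl1xr1 and 53.2% at Ebp, where the median of all peaks was 54.7%. CpG was 0.604 of the number given by its bases at Pmvk, 0.441 at Chd9 and 0.422 at Ebp, and 0.0684 at Tbl1xr1, with medians of 0.710 at promoter peaks and 0.208 at the others. In windows of 101 bp, G and C peaked at 74.3% at 75 bp from the Chd9 summit and at 70.3% at -75 bp from that of Pmvk. At Ebp the highest value, 71.3%, was 275 bp from the summit toward the gene body. At Tbl1xr1 it rose to 62.4% over the repeat, at 50 bp. None of the 4 summits was at the most GC-rich window of its locus, and that of Ebp was the farthest from it.

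**Figure D4:**
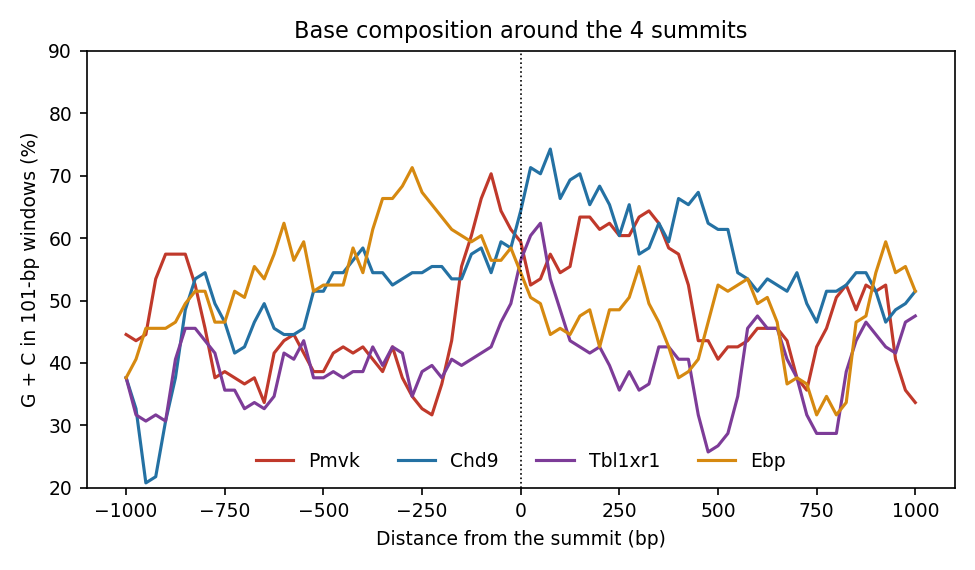
Percent of G and C in 101-bp windows (y axis) by distance from the summit in bp on the plus strand (x axis), 1 line per gene. Chd9 reaches 74.3% at 75 bp, Ebp 71.3% at -275 bp, and Tbl1xr1 rises from a low level to 62.4% at 50 bp.

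Of the listed pathway genes, few were nearest to a peak. Of 23 enzymes of cholesterol synthesis, 2 were the nearest gene of a peak, Pmvk and Ebp, where 2.64% of 21938 protein-coding genes were. Both also had a TSS within 1000 bp of a summit, which holds for 2.52% of protein-coding genes. With the members of the list few and chosen with results known, no test was made. After these, the nearest summits to the enzymes lay at 20.4 kb for Tm7sf2, a sterol reductase, 47.1 kb for Acat2, which joins acetyl-CoA units, 125 kb for Mvd, which makes isopentenyl diphosphate, 146 kb for Fdps, which makes farnesyl diphosphate, and 164 kb for Sc5d, a sterol desaturase. The peaks at these distances were assigned to Syvn1, Sod2, Cdt1, Dap3 and Tecta. The median distance over the 23 enzymes was 456 kb, against 787 kb over protein-coding genes on chromosomes with a peak.

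Of 7 genes of Srebf control, which sense sterol or make and process Srebf proteins, 0 were nearest to a peak, and their nearest summit, 280 kb from Insig1, was at a peak assigned to Paxip1. Of 20 cofactors of Srebf gene activation, 2 were nearest to a peak, Chd9 and Tbl1xr1, both chosen for having a peak. Chd9 alone had a TSS within 1000 bp of a summit. Among 8 fatty acid genes of the Srebf program and 14 genes of sterol transport, 0 were nearest to a peak. Over all protein-coding genes, 2.64% were nearest to a peak and 2.52% had a TSS within 1000 bp of a summit. Counts of 0 in lists this short are near these shares. A region below the threshold of the peak call has no value in the list, so the listed genes without a peak are not shown to lack TCF7.

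The relatives of the 2 cofactors were looked at as well. Of the 9 genes of the CHD family, Chd9 and Chd3, a helicase of the NuRD complex, were nearest to a peak. Over all protein-coding genes, 2.64% were. Chd9 was chosen for having a peak, so its count here is no finding. Chd3 had 2, of 5.20- and 4.64-fold with 54 and 42 fragments, both weaker than the 13.0-fold peak of Chd9. A 10.1-fold peak with 114 fragments, assigned to Gm23758, had its summit 287 bp downstream of a TSS of Chd8, a helicase that binds β-catenin. The nearest summit to Chd5 was 13.0 kb away, in a peak assigned to Rpl22, and those to Chd4, Chd7, Chd6, Chd1 and Chd2 were 757 to 5241 kb away. In the NCoR complex, Tbl1xr1 alone of 6 genes was nearest to a peak, and it too was chosen for having one. Tbl1x, the paralog of Tbl1xr1, was 2426 kb from the nearest summit.

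**Figure D5:**
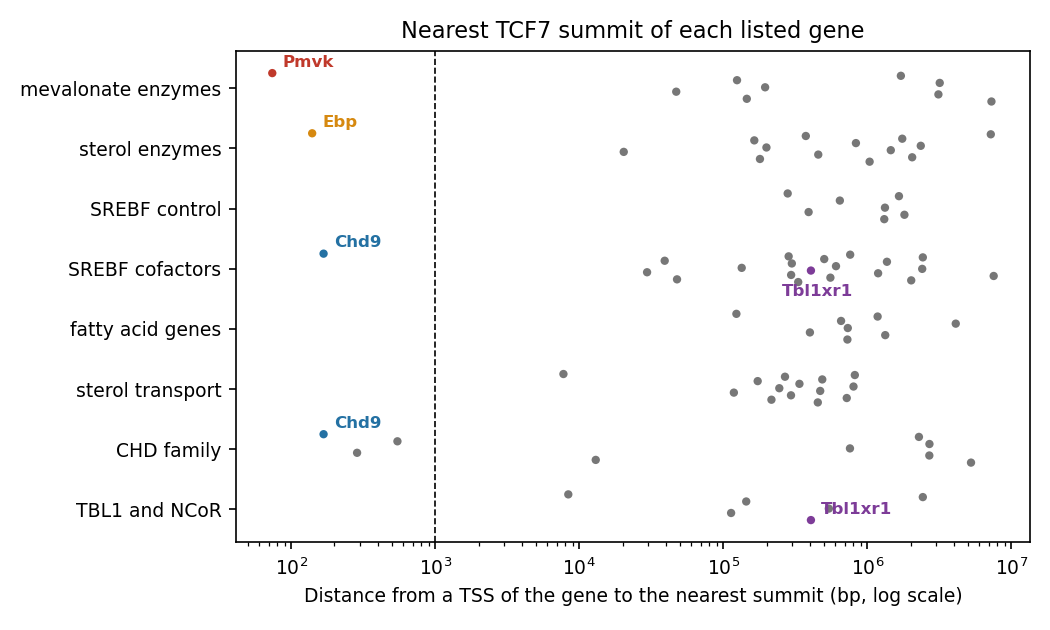
Distance from the TSS of each listed gene to the nearest TCF7 summit in bp (x axis, log scale), 1 point per gene and 1 row per list, with the 4 genes named in color; the dashed line marks 1000 bp. Pmvk, Ebp and Chd9 lie left of the line with Chd3 and Chd8, and Tbl1xr1 lies among the genes without a peak, at 406 kb.

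The surroundings of the 4 peaks differed in the number of other peaks. Around Pmvk, 4 other peaks lay within 1 Mb, the nearest 28.9 kb away, a 4.06-fold peak assigned to Pygo2, a coactivator of β-catenin. Pbxip1 was the next protein-coding gene on the left of the Pmvk peak, at 8.24 kb, and Kcnn3 on the right, at 61.0 kb. Around Ebp there were also 4, the nearest 96.3 kb away at 27.3-fold, and Tbc1d25 lay 16.9 kb from the summit. Chd9 and Tbl1xr1 had none within 1 Mb. Their nearest other peaks were 4121 and 9325 kb away. The nearest protein-coding neighbors of the Chd9 summit were Gm19935, at 11.3 kb, and Rbl2, at 241 kb.

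By fold enrichment and fragments together, the peaks most like that of Pmvk were those assigned to Epo, at 25.1-fold with 382 fragments and the summit 64 bp from a TSS of Gnb2, and to Mtmr14, at 26.7-fold with 356. Most like Chd9 were Ttk and Krcc1, at 13.0- and 12.8-fold with 172 and 170 fragments. Those most like Ebp were Hnrnph1 and Slc4a8, at 3.22- and 3.55-fold with 66 fragments each, and those most like Tbl1xr1 were Gm24255 and Zfp704, at 8.65- and 8.28-fold with 50 and 51. The measure was the distance in log2 fold enrichment and log2 fragments over 779 peaks, between 0.0184 and 0.192 for these 8, and describes peak size alone.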

How the data were processed

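The data were 1 TCF7 ChIP library and 1 input library of DP352 cells. The authors used Bowtie2 (alignment, mm10) and MACS2 within Chipster (peaks), of unstated versions and settings. What they deposited for each peak was the summit pileup, a coverage signal scaled to the input library, the fold enrichment, which is a ratio, and each p- and q-value as its -log10. Their table of nearest genes has headings out of step with its values and was read by content; 14 of its gene identifiers had no match in GENCODE vM21. Members and gene lists were chosen with earlier results of these data known, and some genes of the lists are not reported here.

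Pileups were divided by their common step of 0.522 to give ChIP fragments, whole to within 0.0099 for all 779 peaks, or 1.92 ChIP fragments for each input fragment. The fragment length, 159 bp, was taken from the shortest peak. Background was (pileup + 1)/fold - 1. All 779 backgrounds matched a whole number of input fragments at the summit (409), in 1000 bp (323) or in 10000 bp (21), or the genome mean (26), within a tolerance of at most 0.0030. The -log10 p recomputed from the Poisson distribution differed from the deposited one by at most 0.0029 in the 755 peaks where it could be computed. Intervals were exact Poisson, or Clopper-Pearson for ratios of 2 counts. Sequences came from GRCm38 (RefSeq, GRCm38.p6), TSS from GENCODE vM21 and, for comparison, RefSeq. A promoter peak had its summit within 1000 bp of a protein-coding TSS. No test between samples was possible with 1 library each, and none was run over genes.

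Genes named are the 4 members, list genes that have a peak as nearest gene or start at most 5000 bp from a summit, the 5 enzymes or control genes with the nearest summits otherwise, the protein-coding neighbors of the members, their paralogs, and the 2 most similar peaks of each; Insig1, Paxip1, Gm17935 and Gm31693 were added after their values were seen. Alternatives were other gene assignments, stricter peaks, other promoter distances, motif windows and ranks. Scripts, tested on simulated data, ran in Python 3.11.15, with scipy 1.17.1 for intervals, pandas 2.3.3 and numpy 2.4.6 for tables, samtools 1.23.1 and pysam 0.24.0 for sequence, and matplotlib 3.10.9 for plots.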

Additional observations from a re-analysis of the deposited data

How the results depend on the processing

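Of 56 alternatives, 39 left the count within 1.5 times, or the rank within the range its counting error allows, and 17 moved it. The 2 synthesis enzymes nearest to a peak became 1, Pmvk, among peaks with a q-value at or past 10 on the -log10 scale and among peaks of 10-fold or more, since the Ebp peak is below both. The 2 cofactors became 1, Chd9, when genes needed a TSS within 1000 or 5000 bp of a summit, a gene body overlapping a peak, or a peak of 10-fold or more, and in the same 4 alternatives the 1 gene of the NCoR complex became 0. The 2 CHD genes became 1 at the stricter q-value and at the stricter fold. The lists of control, fatty acid and transport genes stayed at 0 in all 5 alternatives, and 0 members held a TCF motif in each of the 4 motif alternatives. The 3 members at a TSS became 2 when only the outermost TSS of each gene counted, which leaves out Pmvk, and the CHD genes became 3, with Chd8, by TSS or gene body. By fragments at the summit and by pileup minus background, Ebp ranked 641 and 700 in place of 771, and Tbl1xr1 712 and 687 in place of 406; by -log10 of the q-value Tbl1xr1 ranked 556. Pmvk and Chd9 kept ranks of 127 to 138 and 265 to 277. No paired analysis was possible because each group has 1 library. Values rest on 28 to 631 ChIP fragments at a summit and cover counting error only; leaving out a replicate was not possible.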

Other observations

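Peaks with a run of 4 or more CAG units, the kind found at the peak assigned to Tbl1xr1, numbered 70 of 779. Of these, 33 (47.1%) had a summit within 1000 bp of a TSS, against 62.3% of the 709 peaks without such a run, and 5 (7.14%) had a background at the genome mean, against 2.96%. Their median fold enrichment was 8.29 and that of the others 9.25, with medians of 83 and 117 ChIP fragments. The class was looked at after the sequence of the Tbl1xr1 peak was seen, and these differences were not tested.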
